A study of Mus musculus with 16 samples.

Results

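The genes described here build the extracellular matrix of fat, the scaffold of collagens, elastic fibres, proteoglycans and adhesive glycoproteins in which adipocytes sit. They were chosen by name: every gene whose single symbol in the array's annotation is that of a collagen chain, laminin chain, fibrillin, fibulin, microfibril-associated protein, lysyl oxidase or thrombospondin, and in addition Eln, Tnc, Lum, Dcn, Bgn, Fmod, Fn1, Sparc, Postn, Nid1 and Vcan. The rule found 61 of the 8251 genes on the array, represented by 89 probe sets, and each gene was represented by its brightest probe set (highest mean on the log2 scale). A filter on dim genes left 47 of the 61, and 5686 genes were tested in all.

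The tissue was retroperitoneal fat, which lies against the back wall of the abdomen. It came from mice that had all been gonadectomised (GDX), males and females alike. The DHT groups had received 0.1 mg of dihydrotestosterone (DHT), a potent androgen, under the skin at 6 times before sacrifice, from 1 and 3 h through 6 and 12 h to 18 and 24 h, and the controls a vehicle solution, for which the labels give a time of 24 h. Each sex had 2 vehicle arrays and 1 array at each DHT time, 16 arrays in all and 8 per sex; strain and age were not given in the sources used here. Per the labels the mice of a group gave their fat jointly, so an array may hold pooled animals. Whether both vehicle arrays within a sex rest on different mice is not stated. If they do not, the part of the spread behind the p-values that comes from the vehicle arrays may be technical. The rest of that spread is how far the sexes depart from a shared time course, with 1 array per sex and time. The p-values are therefore not shown to measure the spread between mice of a group. The deposited values are MAS5 signals, linear brightness values with the same trimmed mean on every array, and levels are therefore relative to the whole array.

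The matrix of fat is made largely by fibroblasts and preadipocytes between the adipocytes. Fibrillar collagens assemble into cables that bear tension, elastin is deposited on microfibrils to give recoil, and lysyl oxidases join both into stable networks. Small proteoglycans coat and space the collagen fibrils, and matricellular glycoproteins such as tenascin C and periostin are secreted into the matrix at sites of growth, repair or tension. Separate from this interstitial matrix, each adipocyte and each capillary is wrapped in a basement membrane, a thin sheet of type IV collagen, laminins and nidogen.

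The adipocyte identity of the tissue was visible in the fat-cell markers, whose mean log2 signal was 11.58 to 11.92 on the female arrays and 12.25 to 12.42 on 7 male arrays. The remaining male array, male vehicle replicate 2, stood apart. Its 23 skeletal muscle markers averaged 13.26 on the log2 scale, against 9.66 to 10.64 on the other male and 9.35 to 10.42 on the female arrays, and its adipocyte markers averaged 9.48. This array was the lowest of all 16 for 28 of the 47 tested matrix genes, where it was the lowest for 32.7% of all genes tested, and the highest for Fmod, with a signal of 4618, and Col7a1, with 635. Counts of called matrix genes are therefore given on 16 arrays and on the 15 without it, as are most DHT values. Sex differences and marker counts are on 16 arrays unless 15 is named. A sex difference without a 15-array value is not thereby shown to be unchanged. On the female 12 h array 6 exocrine pancreas markers averaged 13.56, against a female median of 9.02.

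Fibrillar collagens, type VI collagen and most elastic fibre and matricellular genes were higher in females than in males. No basement membrane gene passed the test on 16 arrays, where 5.75% of all genes did. Of the 47 matrix genes 24 were higher in females and 0 lower, at an adjusted p under 0.05 in limma with Benjamini-Hochberg adjustment over 5686 genes. Over all genes tested 4.63% were called higher in females and 5.75% were called in either direction, and 30 matrix genes had an unadjusted p under 0.05 against 19.9% of all genes. The median female-minus-male difference was 0.79 on the log2(signal + 16) scale for the matrix genes, a 1.73-fold higher level, and 0.02 for all genes. The added 16 makes such differences understate the change of dim genes. For 20 matrix genes every female array lay above every male array, which was so for 3.46% of all genes. A difference of over 1 on the log2 scale was reached by 16 matrix genes and by 2.3% of all genes. The counts of 24, 20 and 16 each include Tnc and Mfap4, which passed the filter on dim genes through the females. Each of the 24 called genes was higher in females than in males at each of the 6 DHT times. The DHT arrays were part of the test that called these genes, so this is a description and no separate support. Since these are pieces of whole tissue, more cells of a type and more RNA per cell cannot be told apart.

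Without the muscle-rich array the count rose. On 15 arrays 28 matrix genes were higher in females and 0 lower, at a background of 8.83% of all genes higher and 7.76% lower, and all 24 genes called on 16 arrays were among them. The 4 added genes were Col7a1, Fmod, Col15a1 and Mfap5. Among the 28, Tnc, Mfap4 and Col7a1 had a mean male level below the filter on dim genes. An unadjusted p under 0.05 was reached by 32, against 29.8% of all genes. The median difference on 15 arrays was 0.74, against 0.00368 for all genes, and 20 genes again had no overlap between the sexes, at a background of 3.92%.

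**Figure D1:**
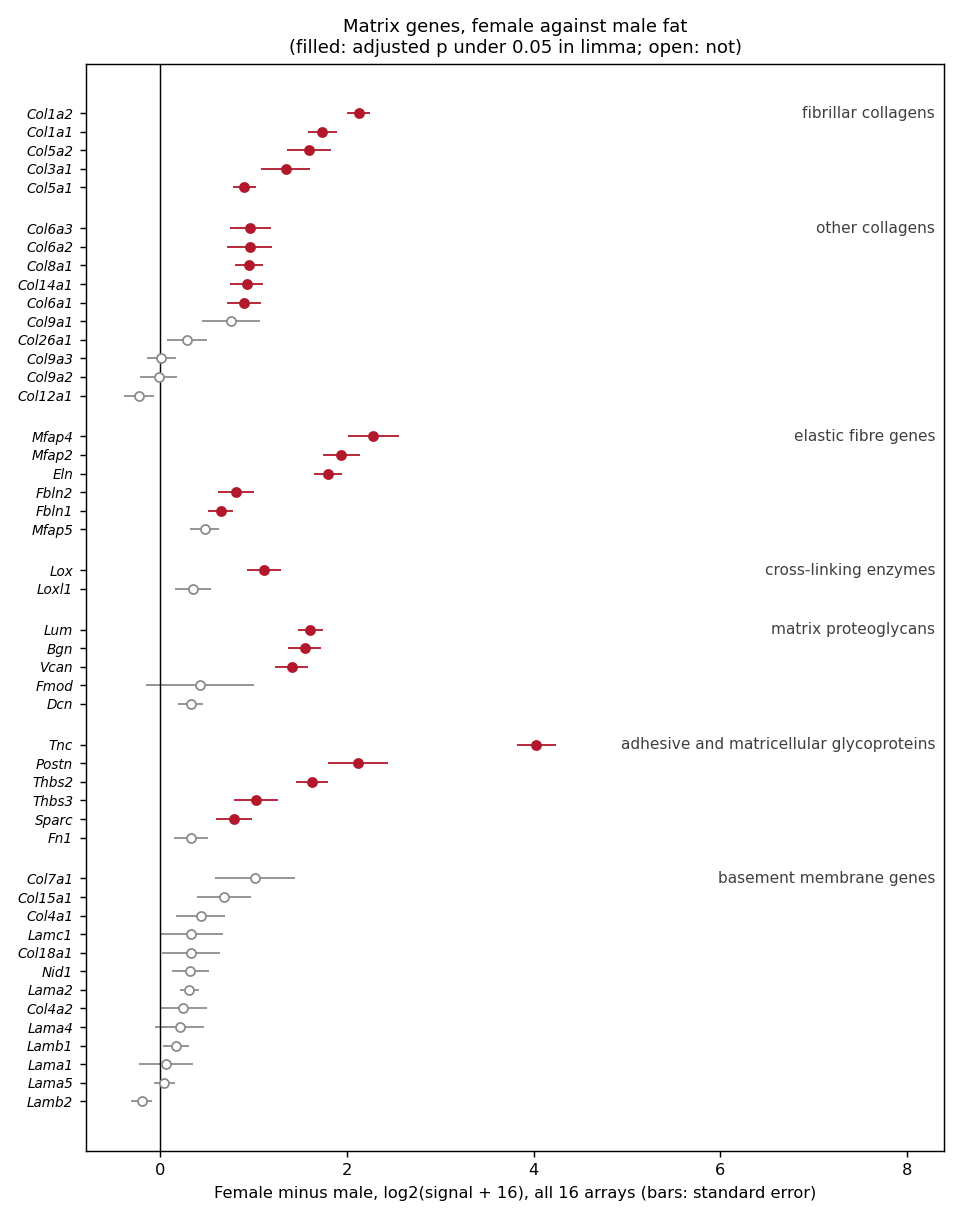
Female-minus-male difference of the 47 tested matrix genes on the log2(signal + 16) scale over all 16 arrays, grouped by role, with limma's standard error as bars. Filled points passed an adjusted p of 0.05 and open points did not. All 5 fibrillar collagens are filled and lie between 0.90 and 2.13, and all 13 basement membrane genes are open. Over all genes tested 5.75% passed.

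Fibrillar collagens were the group in which every tested gene was called, 5 of 5, with a median difference of 1.59. Col1a1 and Col1a2 encode the chains of type I collagen, the main tensile collagen of connective tissue. Array values are given in the order of the vehicle replicates and then of the DHT times, earliest first. Col1a1 signals in females were 26217 and 19494 with vehicle and 18817, 22310.2, 20416, 23332, 33043 and 33176 after DHT. In males they were 7234 and 6217 with vehicle and 8580.5, 7378, 7623, 6546, 7015 and 7395 after DHT. The sexes did not overlap, and the 18 and 24 h female arrays were the highest. Col1a1 was 3.33-fold higher in females, a log2 difference of 1.73 ± 0.15 (standard error, 8 against 8 arrays; adjusted p = 5.20e-05, limma). Col1a2 signals in females were 11058 and 13454 with vehicle and 8319.7, 10765, 10456, 11757, 16678 and 12796 after DHT. The male signals were 2624 and 2853 with vehicle and 2679, 2454, 2651, 2547, 2736 and 2826 after DHT, with the muscle-rich array the highest. The Col1a2 difference was 2.13 ± 0.12, or 4.36-fold (adjusted p = 2.06e-06, limma).

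Col3a1 encodes type III collagen, which shares fibrils with type I and is prominent in soft, distensible tissue. Its signals in females were 14219 and 15631 with vehicle and 12208, 12609.9, 12531, 15013, 17661 and 18756 after DHT. Male arrays gave 5919 and 1777 with vehicle and 8134, 6150.2, 6899, 6612, 6745 and 7621 after DHT, with the muscle-rich array far below the other 7. The difference was 1.34 ± 0.26 on 16 arrays (adjusted p = 0.011, limma) and 1.11 ± 0.09 on 15 (adjusted p = 1.01e-05). Col5a1 and Col5a2 encode chains of type V collagen, which starts and limits the width of type I fibrils. Col5a2 ran from 6676 through a median of 7508 to 10564 in females and from 818 through a median of 3032 to 3362 in males, a difference of 1.59 ± 0.24. Col5a1 ran from 2686 through a median of 3166 to 3475 in females and from 1088 through a median of 1697 to 2131 in males, a difference of 0.90 ± 0.12. Neither type V gene had overlapping sexes. The fibrillar collagens of cartilage were dim: Col2a1, Col11a1 and Col11a2 lay below the filter, with mean signals of 56.1, 88.8 and 31.5, and were not tested.

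**Figure D2:**
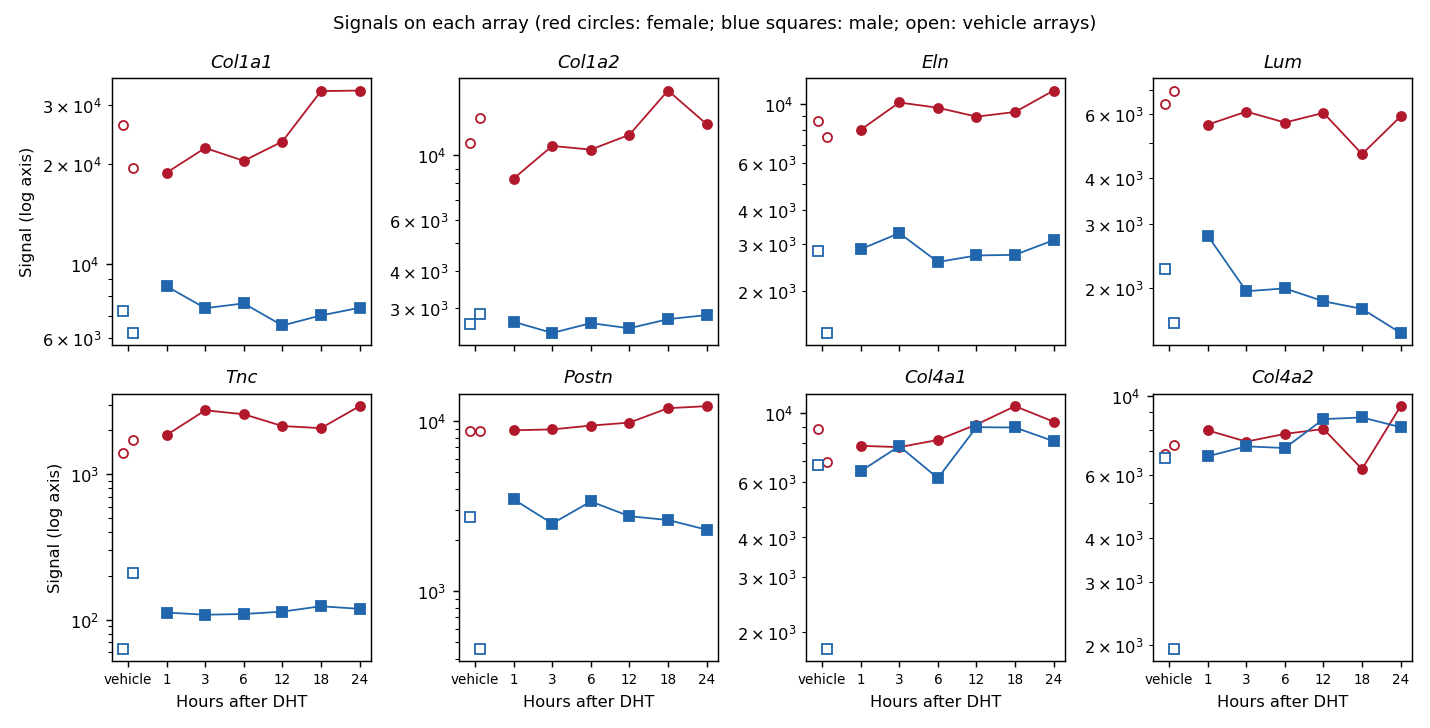
MAS5 signal of 8 matrix genes on each array, on a log axis, with open symbols for the vehicle arrays and filled symbols joined by lines for 1 to 24 h after DHT; circles are female and squares male. Female and male arrays are apart for Col1a1, Col1a2, Eln, Lum, Tnc and Postn and overlap for Col4a1 and Col4a2, where male vehicle replicate 2 lies at 1770.3 and 1958.

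Of the other collagens 5 of 10 tested genes were called, all higher in females, with a median difference of 0.83. Type VI collagen, which forms beaded microfibrils around adipocytes, is built from the products of Col6a1, Col6a2 and Col6a3, and all 3 were higher in females. Col6a3 signals in females were 10668 and 10713 with vehicle and 10806, 12499.6, 11768, 11951, 11141 and 11948 after DHT. Values in males were 6260.4 and 2151 with vehicle and 7750.2, 7289, 7338, 6489.9, 6109 and 6157 after DHT. The lowest female array was above the highest male array. The difference was 0.96 ± 0.22 for Col6a3, 0.96 ± 0.24 for Col6a2 and 0.90 ± 0.19 for Col6a1, with adjusted p of 0.023, 0.039 and 0.015 (limma). Col6a1 signals in females were 9552 and 8238 with vehicle and 9676, 10997, 8773, 9776, 9547 and 11375 after DHT. Among males the signals were 5196 and 2253 with vehicle and 5459.6, 6654, 6512, 5928, 5891 and 5490.1 after DHT. Col6a2 signals were 6381 and 6916 with vehicle and 5590.2, 7093, 6569, 6187, 8357 and 6183 after DHT in females. The males had 3557 and 1141 with vehicle and 4066, 4295, 3864, 3470.2, 3946 and 4784 after DHT. In both genes the sexes were apart and the muscle-rich array was the lowest of the males by far.

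Col8a1, whose short-chain collagen is laid down in vessel walls, was 1.93-fold higher in females (0.95 ± 0.15, adjusted p = 0.0028, limma). Col14a1, a collagen that sits on the surface of type I fibrils, was 1.90-fold higher (0.92 ± 0.18, adjusted p = 0.0099). The 5 genes of this group that did not pass were Col9a1 at 0.75 ± 0.31, Col26a1 at 0.28 ± 0.22, Col9a3 at 0.01 ± 0.16, Col9a2 at -0.02 ± 0.20 and Col12a1 at -0.23 ± 0.16. Col9a1, Col9a2 and Col9a3 are the chains of the cartilage collagen type IX. Another 5, Col10a1, Col13a1, Col17a1, Col19a1 and Col22a1, had mean signals from 8.51 for Col22a1 to 118 for Col17a1 and were not tested.

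Elastic fibre genes had 5 of 6 tested members called, with a median of 1.30. Eln encodes elastin, the rubber-like core of the fibre. Eln signals in females were 8627 and 7526 with vehicle and 8001, 10118, 9669.8, 8956, 9321 and 11214 after DHT. In males they were 2803 and 1389 with vehicle and 2857, 3283, 2559.8, 2707, 2723 and 3088 after DHT. The lowest female array, a vehicle array, lay above the highest male array. Eln was 3.48-fold higher in females (1.80 ± 0.15, adjusted p = 3.75e-05, limma). Fbln1 and Fbln2 encode fibulins, calcium-binding glycoproteins of elastic fibres and basement membranes. Fbln2 signals were 5497 and 3297 with vehicle and 4679, 4101, 6032, 5266, 4195 and 4338 after DHT in females. Male values were 3480.4 and 1481 with vehicle and 4075, 2772, 3268, 2711, 2261 and 1918 after DHT. The sexes overlapped, since male DHT 1 h was above the second female vehicle array, and the difference was 0.81 ± 0.19 (adjusted p = 0.031, limma). Fbln1 signals were 2408 and 2759 with vehicle and 2002, 2463, 2358, 2032, 2025 and 1949 after DHT in females. Male values were 1530.4 and 999.9 with vehicle and 1518, 1690.4, 1405, 1338, 1322 and 1705 after DHT. They did not overlap, and the difference was 0.65 ± 0.14 (adjusted p = 0.016).

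The microfibril-associated genes encode small glycoproteins of the microfibrils on which elastin is deposited. Mfap4 ran from 478 through a median of 601 to 787 in females and from 31.8 through a median of 125 to 201 in males, a difference of 2.28 ± 0.27 or 4.86-fold. Mfap2 ran from 1211 through a median of 1389 to 1701 in females and from 184 through a median of 349.9 to 526.5 in males, a difference of 1.94 ± 0.20 or 3.83-fold. Neither gene overlapped between the sexes. For Mfap4, however, 2 of the 7 other male arrays were below the filter signal of 116. Averaged on the log2 scale its level was 109.5 on those 7 and 592 in females. Mfap4 thus passed the filter through the females, and its fold is uncertain. Mfap5 was at 0.47 ± 0.15 on 16 arrays (adjusted p = 0.099, limma) and was called on 15 at 0.39 ± 0.12 (adjusted p = 0.044). Fbn2, a fibrillin of developing tissue, had a mean signal of 49.1 and was not tested. Of the cross-linking enzymes, Lox, the lysyl oxidase that starts covalent bonds in collagen and elastin, was called and its relative Loxl1 was not. Lox signals in females were 432 and 701 with vehicle and 641, 673, 734, 644, 594 and 959 after DHT. The male signals were 196 and 152 with vehicle and 328, 259.6, 387, 440.5, 453 and 293 after DHT. The lowest female vehicle array lay below the 12 and 18 h male arrays. The difference was 1.11 ± 0.18 (adjusted p = 0.0037, limma). Loxl1 signals were 495 and 197 with vehicle and 237, 222, 213, 323, 516 and 364 after DHT in females. Male arrays gave 202 and 199.7 with vehicle and 233, 297, 191, 213, 276 and 273 after DHT. The sexes overlapped widely, at 0.35 ± 0.20 (adjusted p = 0.359).

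Of the matrix proteoglycans, 3 of 5 were called, with a median over the 5 of 1.41. Lum and Bgn encode lumican and biglycan, small leucine-rich proteoglycans that bind collagen fibrils, and Vcan encodes versican, a large proteoglycan that binds hyaluronan. Bgn signals in females were 13609 and 12371 with vehicle and 11972, 13025, 13981, 15180.2, 16283 and 16529 after DHT. Values in males were 5154 and 2198 with vehicle and 4786, 5711, 5348, 5394, 5428 and 5745 after DHT. The Bgn difference was 1.55 ± 0.18 on 16 arrays and 1.40 ± 0.07 on 15 (adjusted p = 4.36e-04 and 6.44e-08, limma). Lum signals in females were 6404 and 6981 with vehicle and 5624, 6109.8, 5700.3, 6060.4, 4667 and 5927 after DHT. Among males the signals were 2257 and 1603 with vehicle and 2782, 1957, 1992, 1835, 1749 and 1502 after DHT. Lum stood at 1.61 ± 0.13 (adjusted p = 3.75e-05) and Vcan at 1.41 ± 0.18 (adjusted p = 7.86e-04), both with no overlap.

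Dcn encodes decorin, the closest relative of biglycan and a regulator of fibril thickness. Dcn signals in females were 14358 and 12904 with vehicle and 9004, 10119, 9672, 12495, 17449 and 14823 after DHT. The males had 10174 and 10419.5 with vehicle and 8108, 11875, 9182, 8777, 9773 and 10827 after DHT. The sexes overlapped, and the difference was 0.32 ± 0.14 (adjusted p = 0.211, limma) on 16 arrays and 0.32 ± 0.11 on 15 (adjusted p = 0.058). Fmod encodes fibromodulin, another leucine-rich proteoglycan, which is abundant in tendon. Without the muscle-rich array its males ran from 63.5 through a median of 139.7 to 250.4 and its females from 123 through a median of 342 to 497. The Fmod difference was 0.42 ± 0.58 on 16 arrays and 0.97 ± 0.22 on 15 (adjusted p = 0.752 and 0.011, limma).

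Of the adhesive and matricellular glycoproteins 5 of 6 were called, Tnc among them. Tenascin C is a large glycoprotein with many arms that modulates cell adhesion, and is usually low in resting adult tissue. Tnc signals in females were 1407 and 1721 with vehicle and 1860.3, 2748, 2583, 2143, 2073 and 2934 after DHT. In males they were 63.4 and 210.1 with vehicle and 112, 108, 109.5, 114, 124 and 119 after DHT, of which the higher vehicle value belongs to the muscle-rich array. The fitted Tnc difference was 4.03 ± 0.21 on 16 arrays (adjusted p = 1.10e-06, limma) and 4.21 ± 0.11 on 15. Tnc passed the filter on dim genes through the females: 5 of the 7 other male arrays were below its signal of 116, and the male level is not shown to be above background, so the size of the difference is not settled. A second Tnc probe set, with a female mean of 239.8 and a male mean of 23.4, gave 2.76 with no overlap. All 6 male DHT values fell between the vehicle values of that sex.

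Postn encodes periostin, which binds collagen and promotes its cross-linking. Postn signals in females were 8788 and 8706 with vehicle and 8825, 8936, 9406, 9793, 11902 and 12234 after DHT. The male signals were 2731 and 459.6 with vehicle and 3463, 2498, 3367, 2759, 2619.8 and 2299 after DHT. The difference was 2.12 ± 0.33 on 16 arrays and 1.81 ± 0.11 on 15 (adjusted p = 0.0027 and 8.70e-07, limma). Thbs2 and Thbs3 encode thrombospondins, of which thrombospondin 2 is an inhibitor of vessel growth. Thbs2 ran from 524 through a median of 719 to 857 in females and from 185 through a median of 197 to 354 in males, with no overlap, and differed by 1.62 ± 0.17 (adjusted p = 1.95e-04). Thbs3 ran from 751 through a median of 909.6 to 1104 in females and from 168 through a median of 525.8 to 604 in males and differed by 1.03 ± 0.24 (adjusted p = 0.026).

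Sparc encodes a collagen-binding glycoprotein also called osteonectin. Sparc signals in females were 8036 and 10350.3 with vehicle and 7266, 7786, 7361, 8084, 13719 and 12125 after DHT. Male arrays gave 5231 and 2494 with vehicle and 5608, 5458, 5249.6, 6034, 5991 and 7559.5 after DHT. The 24 h male array was above the lowest female arrays, so the sexes overlapped, and the difference was 0.79 ± 0.19 (adjusted p = 0.033, limma). Fn1 encodes fibronectin, the adhesive glycoprotein on which collagen fibrils are assembled. Fn1 signals in females were 2437 and 1641 with vehicle and 1731, 1759.6, 1863, 2475, 3009 and 2518 after DHT. Values in males were 2010.3 and 947 with vehicle and 1778, 2197, 1667, 1699.8, 1727 and 1906 after DHT. Fn1 overlapped between the sexes and was at 0.32 ± 0.18 (adjusted p = 0.364) on 16 arrays and 0.21 ± 0.13 on 15.

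Basement membrane genes were called in 0 of 13 cases on 16 arrays, where 5.75% of all genes were called in either direction. An unadjusted p under 0.05 in limma was reached by 3 of the 13 and by 19.9% of all genes. Both counts are thus near the shares over all genes. The median difference was 0.31. Col4a1 and Col4a2 encode the common chains of type IV collagen and lie head to head on chromosome 8, with starts 21 bases apart in RefSeq on GRCm38.p6. Col4a1 signals in females were 8849 and 6953 with vehicle and 7834, 7759, 8178, 9157, 10478 and 9356 after DHT. Among males the signals were 6824 and 1770.3 with vehicle and 6504, 7816, 6180.4, 8983, 8962 and 8108 after DHT. Col4a2 signals in females were 6857 and 7297 with vehicle and 7995, 7436, 7817, 8066, 6231 and 9345 after DHT. The males had 6670.4 and 1958 with vehicle and 6766, 7213, 7136, 8597, 8691 and 8161 after DHT. The sexes overlapped in both genes, and the muscle-rich array was the lowest. The differences on 15 arrays were 0.19 ± 0.07 for Col4a1 and 0.02 ± 0.08 for Col4a2 (adjusted p = 0.11 and 0.909, limma), after 0.43 ± 0.26 and 0.25 ± 0.25 on 16.

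Col15a1 encodes a collagen that ties basement membranes to the fibrils beneath. Col15a1 signals in females were 5123 and 5971 with vehicle and 5369, 5379.6, 5149, 3812, 3587 and 4386 after DHT. In males they were 2718 and 838 with vehicle and 5021, 4911, 4053, 2834, 2437 and 3876 after DHT. The difference was 0.68 ± 0.29 on 16 arrays (adjusted p = 0.208, limma) and 0.42 ± 0.11 on 15, where it was called (adjusted p = 0.023). Col7a1, the collagen of anchoring fibrils, was at 1.01 ± 0.43 on 16 arrays and was called at 1.35 ± 0.28 on 15 (adjusted p = 0.215 and 0.0062, limma). For Col7a1 5 of those 7 male arrays were below the filter signal of 116, so that this gene passed the filter through the females and the array left out, and its size on 15 arrays rests on male values not shown to be above background. The laminin chains, with 15-array values in brackets, ranged from -0.20 ± 0.11 (-0.19) for Lamb2 to 0.33 ± 0.33 (0.03) for Lamc1, and on 15 arrays none of the 7 tested chains was called. Nid1, the linker between laminin and type IV collagen, was at 0.32 ± 0.20 (0.17), and Col18a1, the source of endostatin, at 0.33 ± 0.31 (0.09). Larger values from further Col18a1 probe sets are given below. Another 5 basement membrane genes, Col4a3, Col4a4, Col4a5, Lama3 and Lamb3, were below the filter, with mean signals of 15.6 to 124. Whether the basement membrane genes differ less between the sexes than the other groups was not tested.

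**Figure D3:**
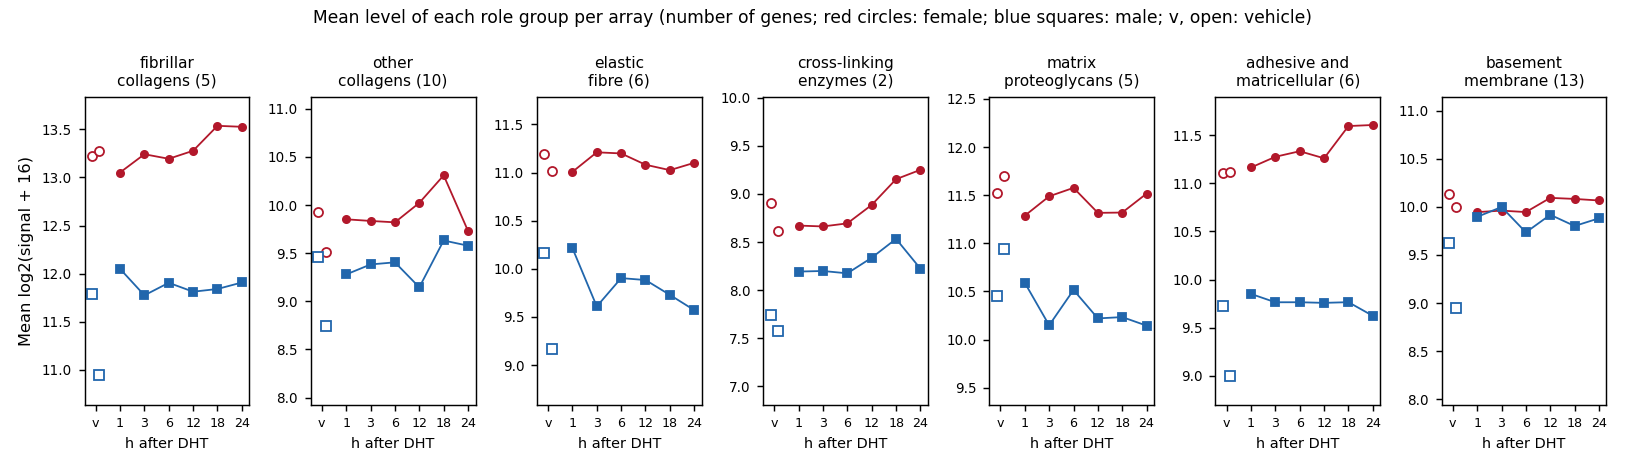
Mean log2(signal + 16) of the tested genes of each role on each array, with open symbols for the vehicle arrays (v) and lines from 1 to 24 h after DHT; circles are female, squares male, and each panel spans the same height. Fibrillar collagens lay between 13.05 and 13.54 in females and below that range in all males, with male vehicle replicate 2 lowest at 10.94.

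Sequences upstream of 3 genes with a sex difference are shown, since they stand for type I collagen, type III collagen and tenascin C, and each holds some of the motif letters searched. They are the 150 bases before the first start that RefSeq lists on GRCm38.p6, on the gene's own strand and 5′ to 3′. Capitals mark the letters CCAAT or TATAAA, the motif letters of the CCAAT box and TATA box, read on both strands. The stretches lie at chr6:4505468-4505617 (+ strand), chr1:45311388-45311537 (+ strand) and chr4:64047016-64047165 (- strand).
Col1a2: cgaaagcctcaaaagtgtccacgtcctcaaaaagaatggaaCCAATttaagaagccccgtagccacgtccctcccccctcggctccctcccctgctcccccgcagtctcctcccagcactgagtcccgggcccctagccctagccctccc
Col3a1: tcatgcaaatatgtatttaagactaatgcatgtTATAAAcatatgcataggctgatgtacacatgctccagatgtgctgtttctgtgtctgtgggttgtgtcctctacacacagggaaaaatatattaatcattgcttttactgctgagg
Tnc: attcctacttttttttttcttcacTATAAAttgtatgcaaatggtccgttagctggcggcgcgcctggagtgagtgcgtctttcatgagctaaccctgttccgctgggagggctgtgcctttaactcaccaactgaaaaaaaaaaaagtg
The CCAAT of Col1a2 begins 109 bases before the start, the TATAAA of Col3a1 117 and that of Tnc 126. These matches are descriptions of letters, found at any position, and not of binding or of a working CCAAT or TATA box. In the 250 bases before the start, 30 tested matrix genes could be matched to the promoter table, and CCAAT was found in 33.3% of them, as in 34.5% of all 27025 promoters. TATAAA was found in 10% against 13.0%. The letters AGAACA, the core of an androgen response element repeat, were found in 16.7% against 16.2%. The 3 motifs were searched on both strands, and matches that overlap another motif were kept.

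Several genes had further probe sets on the array. Of the 24 called genes 11 had further probe sets, 14 in all, of which 12 were higher in females and 7 without overlap. For Col3a1 the others gave 2.11 and 1.58, for Eln 2.27, for Col5a1 1.29 and for Col6a1 1.16. The second Col1a1 probe set gave 0.80 with overlap. The exceptions were the second probe set of Col1a2, at -0.27 with a mean signal of 2147, and a dim Fbln1 probe set at -0.09. The further probe sets of Lox and Mfap4 had mean signals of 109 and 52.5, below the level of the filter, and gave 0.27 and 0.23. Of the genes called only without the muscle-rich array, Mfap5 and Fmod had a further probe set each, and Col15a1 and Col7a1 had none. With that array included they gave -0.09 for Mfap5 and -0.23 for Fmod, with overlap and against the called direction. Their mean signals were 214 and 49.3, the latter below the level of the filter. Among basement membrane genes, further Col18a1 probe sets gave 0.46, 0.60, 0.87 and 0.66, the last without overlap. Further probe sets gave 0.48 for Lamb1, 0.66 for Lama5, 0.19 for Lama4 and -0.22 for Lamc1, all with overlap. Those of Lama5, Lama4 and Lamc1, and that of Col18a1 at 0.46, had mean signals below the level of the filter. No single further probe set was tested.

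Genes that process or sense the matrix were followed in 4 lists, and those called on 16 arrays were all higher in females, at the background of 4.63% of all genes. Of 13 tested collagen processing genes 4 were higher in females: Bmp1, which cuts the end from procollagen, at 0.98, P3h3, a prolyl hydroxylase, at 0.72, Ctsk, a collagen-degrading protease, at 0.71 and Colgalt1, which adds sugars to collagen, at 0.42. The median over the 13 was 0.60. Of 17 genes of TGF-beta signalling, the pathway best known for driving collagen synthesis, 3 were higher: the ligand Tgfb3 at 1.17, the latency protein Ltbp2 at 0.97 and the repressor Tgif1 at 0.58. The matrix receptors, integrins and syndecans among them, had 0 of 13 called and a median of 0.20. An unadjusted p under 0.05 was reached by 2 of these 13 and by 19.9% of all genes. Of 16 other matrix proteins 3 were higher: Mgp, the matrix Gla protein that restrains calcification, at 1.79, Matn2, an adaptor of matrix filaments, at 0.88 and Fgl2 at 0.68. On 15 arrays the 4 lists had 24 genes higher and 3 lower of 59, where 8.83% and 7.76% of all genes were, after 10 and 0 on 16, where 4.63% and 1.13% were.

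Markers of several cell types differed with sex beside the matrix genes, where 4.63% of all genes were called higher in females on 16 arrays and 7.76% lower on 15. Of 17 fibroblast and preadipocyte markers 6 were higher in females and 0 lower, with summed signals of 39281 to 52743 on the female and 20593 to 48896 on the male arrays, 38211 to 48896 without the muscle-rich array. Mgp is in this list as well. Of 11 smooth muscle and pericyte markers 7 were higher, with summed signals of 13081 to 17730 in females and 7082 to 9902 in males. Of 15 macrophage markers 5 were higher, with 37441 to 50099 in females and 7913 to 35485 in males. Adipocyte markers summed to 89224 to 112424 in females and to 116305 to 153833 on the 7 other male arrays, and on 15 arrays 9 of 14 were lower in females. The counts of the other marker lists are on 16 arrays. Since 5.75% of all genes were called in either direction on 16 arrays and 16.6% on 15, the adipocyte count cannot be compared with them. With the mean of the fibroblast markers as a covariate, an alternative chosen after seeing the data, 16 matrix genes were higher in females and 2, Col4a2 at -0.67 and Lama4, lower, where 7.09% and 10.8% of all genes were. That mean was 10.16 to 10.43 on the female and 9.03 to 9.97 on the male arrays, with no overlap, so this level and sex cannot be told apart. Among those higher were Tnc at 4.73, Col1a2 at 2.11, Col1a1 at 1.61 and Eln at 1.33, of which Tnc passed the filter through the females. Col3a1, Col6a1, Col6a2, Col6a3, Col14a1, Fbln1, Fbln2, Lox, Sparc and Thbs3 no longer passed. Endothelial markers had 0 of 12 called, with 4 at an unadjusted p under 0.05, which 19.9% of all genes reached on 16 arrays. Exocrine pancreas markers had 0 of 6 called, with 4 at such a p, and adrenal and kidney markers 0 of 4 called. Mesothelial markers had 1 of 3 called, and skeletal muscle markers 1 higher and 1 lower of 23. The part of the smooth muscle, macrophage and adipocyte content was not tested.

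A technical value also moved with sex. Control RNAs spiked in before hybridisation averaged 8.76 to 9.96 on the log2 scale on the female arrays and 10.18 to 11.46 on the male arrays, with no overlap, so this level and sex cannot be told apart. With it as a covariate, again chosen after seeing the data, 8 of 47 matrix genes were called, all higher in females, where 0.44% of all genes were called higher. They were Bgn, Col1a2, Col3a1, Eln, Lum, Mfap2, Postn and Tnc, of which Tnc passed the filter on dim genes through the females. The median difference of the 47 was then 1.23, and that of all genes 0.13.

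For DHT itself no matrix gene passed the test. Over the 6 times, 12 DHT against 4 vehicle arrays, 0 of 47 were called, where 0.0703% of all genes were called, and 6 had an unadjusted p under 0.05 in limma, at a background of 5.1%. The median change was 0.21 against 0.04 for all genes, with 37 of 47 positive. On 15 arrays 0 were called, where 0.0879% of all genes were, 4 had an unadjusted p under 0.05 at a background of 3.06%, the median was 0.05 against 0.00554, and 29 were positive. The positive median thus fell by most of its size without the muscle-rich array, which is a vehicle array with low matrix signals.

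**Figure D4:**
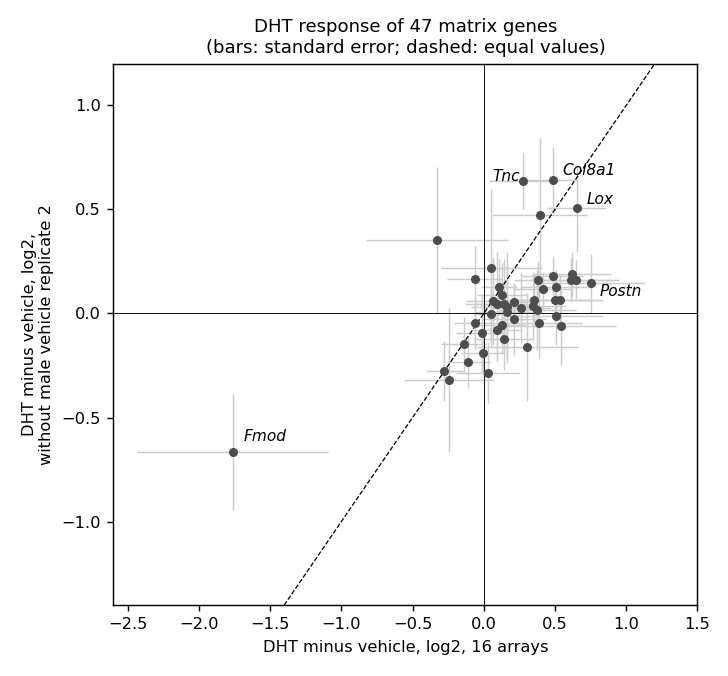
Change with DHT over all times in each of the 47 matrix genes on 16 arrays (x axis) and on the 15 without male vehicle replicate 2 (y axis), log2(signal + 16), with standard errors. Points right of the dashed line of equal values have a lower value when the array is left out. Fmod moved from -1.76 to -0.66 and Tnc from 0.28 to 0.64.

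The smallest p among positive changes on 16 arrays belonged to Lox at 0.65 ± 0.21, Col8a1 at 0.48 ± 0.17 and Col6a1 at 0.49 ± 0.21 (0.18 on 15 arrays), each with an adjusted p of 0.63 (limma). With the 15-array value in brackets, those among negative changes were Fmod at -1.76 ± 0.67 (-0.66), Lama5 at -0.28 ± 0.13 (-0.28) and Dcn at -0.14 ± 0.16 (-0.15). On 15 arrays the first among positive changes was Tnc at 0.64 ± 0.14 (adjusted p = 0.265, limma), before Col8a1 at 0.64 ± 0.16 (adjusted p = 0.708) and Lox at 0.50 ± 0.21. Both Tnc and Col8a1 had all 6 female DHT arrays above both female vehicle arrays. So did Postn, Thbs2 and Col6a3, 5 genes of 47, against 2.66% of all genes. Lum had all 6 below, for which the share of all genes was not counted. Col8a1 signals in females were 291 and 224 with vehicle and 323, 363, 433, 482, 624 and 408 after DHT. The male signals were 132 and 198 with vehicle and 192, 151, 187, 168, 253 and 249.5 after DHT. The highest Col8a1 value in each sex was at 18 h, and the muscle-rich male vehicle array lay above 4 of the 6 male DHT arrays.

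**Figure D5:**
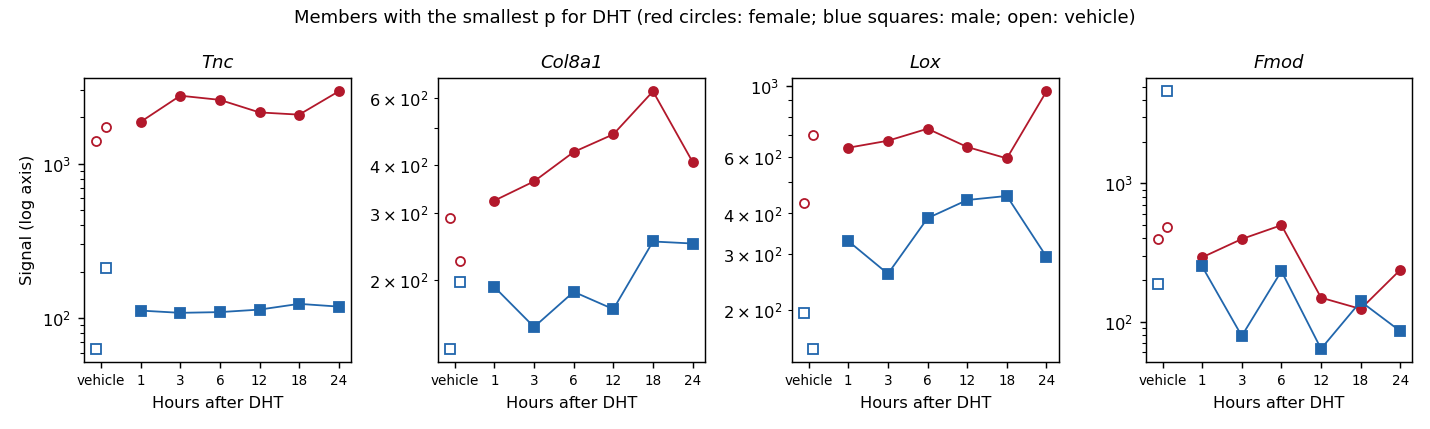
MAS5 signals on a log axis of Tnc, Col8a1, Lox and Fmod, with open symbols for vehicle and lines from 1 to 24 h after DHT; circles are female and squares male. Female Tnc and Col8a1 after DHT lie above both female vehicle arrays, and male vehicle replicate 2 lies at 210.1 for Tnc, 198 for Col8a1, 152 for Lox and 4618 for Fmod. The male Tnc level is not shown to be above background.

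At single times, 2 DHT against 4 vehicle arrays, 0 of 47 matrix genes passed at any of the 6, on 16 or on 15 arrays. Of all genes 0.0176%, 0.0528% and 0.0528% were called at 3, 6 and 12 h on 16 arrays and 0.0% at the other times, and on 15 arrays 0.0176%, 0.0879%, 0.0703%, 0.0352% and 0.0176% from 3 h to 24 h. Unadjusted p under 0.05 were reached by 1, 0, 2, 2, 4 and 3 genes from the earliest time to the latest on 16 arrays, where 2.39%, 1.79%, 1.81%, 2.16%, 5.08% and 2.27% of all genes did so. On 15 arrays the counts were 3, 3, 3, 6, 6 and 9, at backgrounds of 4.08%, 2.09%, 2.5%, 3.64%, 6.4% and 3.87%. The genes named at each time are those with the lowest p on 16 arrays, none past the threshold, and the 15-array value follows each in brackets. At 1 h the lowest p among positive values belonged to Col5a1 at 0.39 ± 0.21 (0.23), Mfap5 at 0.47 ± 0.26 (0.29) and Lox at 0.54 ± 0.31 (0.39), and among negative values to Lama5 at -0.51 ± 0.20 (-0.51), Dcn at -0.47 ± 0.24 (-0.48) and Col1a2 at -0.29 ± 0.22 (-0.27). The 3 h values were Eln at 0.53 ± 0.26 (0.31), Col6a1 at 0.63 ± 0.32 (0.33) and Col15a1 at 0.82 ± 0.49 (0.30) on the positive side and Fmod at -1.74 ± 1.00 (-0.64), Mfap4 at -0.68 ± 0.48 (-0.75) and Col7a1 at -0.68 ± 0.75 (0.01) on the negative. At 6 h the lowest p among positive values belonged to Lox at 0.75 ± 0.31 (0.60), Col8a1 at 0.46 ± 0.26 (0.61) and Fbln2 at 0.51 ± 0.33 (0.27), and among negative values to Lama5 at -0.47 ± 0.20 (-0.47), Dcn at -0.33 ± 0.24 (-0.34) and Col12a1 at -0.32 ± 0.28 (-0.32). The 12 h values were Lox at 0.75 ± 0.31 (0.60), Col8a1 at 0.46 ± 0.26 (0.62) and Col4a1 at 0.79 ± 0.45 (0.31) on the positive side and Fmod at -2.53 ± 1.00 (-1.43), Lama5 at -0.29 ± 0.20 (-0.29) and Col9a1 at -0.63 ± 0.53 (-0.47) on the negative. At 18 h the lowest p among positive values belonged to Col8a1 at 0.91 ± 0.26 (1.07), Lox at 0.71 ± 0.31 (0.56) and Col12a1 at 0.63 ± 0.28 (0.63), and among negative values to Fmod at -2.16 ± 1.00 (-1.07), Lum at -0.32 ± 0.23 (-0.44) and Lama5 at -0.21 ± 0.20 (-0.20). The 24 h values were Lox at 0.75 ± 0.31 (0.60), Col8a1 at 0.61 ± 0.26 (0.77) and Sparc at 0.74 ± 0.33 (0.44) on the positive side and Fmod at -2.05 ± 1.00 (-0.95), Mfap4 at -0.78 ± 0.48 (-0.85) and Lum at -0.26 ± 0.23 (-0.38) on the negative. The Fmod values at the 4 times named were between -2.53 and -1.74 with the muscle-rich array, whose Fmod signal was 4618, and between -1.43 and -0.64 without it. On 15 arrays Col8a1 was at 1.07 ± 0.22 at 18 h and Tnc at 0.82 ± 0.19 at 24 h (adjusted p = 0.276 and 0.542, limma). The male part of this Tnc value again comes from signals not shown to be above background. The 6 comparisons share the same vehicle arrays, so their values are not independent of each other.

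The highest arrays of the series were late female arrays for many matrix genes. The female 18 h array was the highest of the 16 for 15 of 47 and the female 24 h array for 13, against 13.6% and 7.42% of all genes. The 18 h group held Col1a2, Sparc, Dcn, Fn1, Col4a1 and Col8a1, and the 24 h group Col1a1, Col3a1, Col5a2, Eln, Lox, Postn and Tnc. A female array was the highest for 42 of 47, against 47.8% of all genes, so the counts for single female arrays are not separate from the sex difference. Of the 2719 tested genes highest on a female array, 773 were highest at 18 h and 422 at 24 h. For the 42 matrix genes these counts were 15 and 13. Over both sexes, 12, 18 and 24 h against 1, 3 and 6 h gave 0 called matrix genes of 47 on 16 arrays and on 15, where 0.0% and 0.0352% of all genes were called, with 0 and 9 at an unadjusted p under 0.05 at backgrounds of 2.57% and 7.16% (limma). The 15-array values with the lowest p were -0.53 ± 0.12 for Col15a1, -0.97 ± 0.25 for Fmod, 0.32 ± 0.08 for Col4a1 and 0.41 ± 0.11 for Sparc. On 16 arrays they were Col8a1 at 0.35 ± 0.17, Dcn at 0.32 ± 0.16 and Loxl1 at 0.43 ± 0.23 on the positive side and Col15a1 at -0.53 ± 0.33, Lum at -0.23 ± 0.15 and Fmod at -0.97 ± 0.67 on the negative. The antisense control probe sets averaged 6.38 to 6.75 on the female arrays at 1, 3 and 6 h and 8.84 to 9.96 at 12, 18 and 24 h, and their part in these values was not tested beyond the covariate given in the closing section.

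Within gonadectomised females, 6 DHT against 2 vehicle arrays, 0 of 47 genes passed on 16 or on 15 arrays, where 0.0% and 0.0528% of all genes did, and 1 had an unadjusted p under 0.05 at a background of 1.13% (limma). The values with the lowest p were 0.71 ± 0.23 for Col8a1, 0.42 ± 0.20 for Thbs2 and 0.60 ± 0.33 for Tnc, and on the other side -0.34 ± 0.20 for Lama5, -0.27 ± 0.20 for Fbln1 and -0.24 ± 0.22 for Lum. The difference between the sexes in the DHT response, tested as the sex by DHT term, passed for 0 of 47 on 16 and on 15 arrays, with 4 and 3 at an unadjusted p under 0.05 at backgrounds of 6.42% and 2.87%. Thbs2 was at 0.97 ± 0.28 on 16 arrays and 0.71 ± 0.27 on 15, with all 6 female DHT arrays above both female and all 6 male DHT arrays below both male vehicle arrays. Col15a1 was at -1.57 ± 0.48 and -0.73 ± 0.21. With the 15-array value in brackets, the next were 1.37 ± 0.61 (1.43) for Col9a1, 2.03 ± 1.23 (-0.23) for Fmod, -1.16 ± 0.51 (-0.41) for Lama4 and -1.14 ± 0.52 (-0.27) for Col3a1. The Col3a1 and Lama4 values were much smaller and the Fmod value turned without the muscle-rich array. Within gonadectomised males 0 of 47 passed on 16 or on 15 arrays, where 0.0176% and 0.0% of all genes did, with 17 and 5 at an unadjusted p under 0.05 at backgrounds of 20.8% and 3.24% (limma). Col15a1 was at 1.29 ± 0.34 on 16 arrays and 0.45 ± 0.17 on 15, Lox at 0.97 ± 0.28 and 0.80 ± 0.34, and Fmod at -2.78 ± 0.87 and -0.52 ± 0.48. In the sex by DHT term without male vehicle replicate 1, which leaves the muscle-rich array as the male control, 24 of 47 passed, and 33.7% of all genes. Within males in that setting 29 passed, and 43.0% of all genes.

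In the pathway lists DHT called 0 of 59 tested genes over all times, with 3 at an unadjusted p under 0.05 in limma, where 5.1% of all genes had one. The genes named are the 2 of each list with the lowest p over the DHT comparisons, with the 15-array value in brackets. In collagen processing they were Plod3, a lysyl hydroxylase, at 1.21 ± 0.42 (0.18) and Serpinh1, a collagen chaperone, at 1.02 ± 0.36 (0.13), both within males. In TGF-beta signalling they were Ccn2, a target of the pathway, at -1.11 ± 0.46 (-0.57) within males and Eng, a co-receptor of endothelium, at -0.94 ± 0.37 (-0.40) in the sex difference of the response. Among other matrix proteins they were Mgp at -1.10 ± 0.23 (-0.79) within males and Ncan at -1.20 ± 0.33 (-1.22) at 24 h, and among receptors Sdc4 at 0.97 ± 0.31 (0.97) late against early and Sdc2 at -0.72 ± 0.27 (-0.71) at 3 h. The Plod3 and Serpinh1 values were far smaller without the muscle-rich array. Ccn2 passed the filter on dim genes through the females, with a mean signal of 202.5. Its mean in males was 110.8, and 88.3 without the muscle-rich array, both below the level of the filter. The Ccn2 value within males thus rests on signals not shown to be above background.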

How the data were processed

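Expression was measured on 16 Affymetrix arrays, 8 per sex. The deposited values are MAS5 signals, an intensity on a linear scale which the authors derived in MAS5, as the submitters' processing notes list it (version: not given in the sources used here); a trimmed mean of 500 on each array, leaving out 2% at each end, was found in the values. Of 12488 probe sets 66 were controls and 10855 had a single gene symbol, which gave 8251 genes. Log2(signal + 16) was fitted with limma 3.58.1 in R 4.3.3 (sex and time as terms, empirical Bayes with trend; sex by DHT in a second model), with Benjamini-Hochberg adjustment over 5686 genes whose mean log2 signal passed the 40th percentile of non-control probe sets, a signal of 116. The script was tested on simulated data. The labels give no replicate numbers, so vehicle arrays were numbered in accession order and pair no samples. Named array by array were the 3 brightest genes of each role; also named were every gene past the threshold and the 3 lowest p in each direction of each DHT comparison on 16 arrays. The matrix genes, marker lists and pathway lists were chosen with earlier results of these data known. Alternatives varied pseudocount, filter, probe set choice, covariates and each array left out. The number of arrays limits the precision.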

Additional observations from a re-analysis of the deposited data

Results flagged for a closer look

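Male vehicle replicate 2, the muscle-rich array, was far below the other 7 male arrays for 12 of 20 genes, the 3 brightest of each role (both cross-linking enzymes), in 40 tests over both sexes. The gap to the next male array was above Dixon's 95% critical value, which chance exceeds in about 1 group in 20. Its signals there were Sparc 2494, Postn 459.6, Fn1 947, Col4a1 1770.3, Col4a2 1958, Col15a1 838, Eln 1389, Col3a1 1777, Bgn 2198, Col6a3 2151, Col6a1 2253 and Col6a2 1141.

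In 4 matrix genes the DHT arrays of the sexes lay on opposite sides of the mean of their own vehicle arrays. The female-minus-male difference of the DHT response was 0.64 ± 0.46 for Tnc, 0.97 ± 0.28 for Thbs2, -1.57 ± 0.48 for Col15a1 and -0.54 ± 0.28 for Fbln1 (log2, standard error), and limma's sex by DHT term passed for none of them. On the 15 arrays without male vehicle replicate 2 these differences were -0.12 ± 0.30, 0.71 ± 0.27, -0.73 ± 0.21 and -0.23 ± 0.23. The male Tnc level is not shown to be above background, so the male direction for Tnc is uncertain.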

How the results depend on the processing

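The count of 24 matrix genes higher in females ranged from 18 to 28 with each array left out in turn, and from 8 to 26 under the other settings. It was 8 with the hybridisation control level as a covariate and 18, with 2 of them lower in females, with the fibroblast marker level, both chosen after seeing the data. DHT called 0 matrix genes over all times, at single times, late against early and within females in each setting run. In the sex difference of the DHT response the count ranged from 0 to 24 with each array left out, and within males from 0 to 29; the highest were without male vehicle replicate 1, when the muscle-rich array is the male control. With the fibroblast marker level as a covariate the female-minus-male values turned to -0.39 for Col15a1, -0.54 for Col4a1, -0.67 for Col4a2 and -0.17 for Fn1. Col4a2 turned to -0.083 with the muscle marker level, and Col7a1 and Fmod to -0.48 and -2.90 with the hybridisation control level. At 3 h Mfap4 ranged from -1.70 to 0.34 and Col7a1 from -1.13 to 0.0059 with each array left out, and at 18 h Lama5 was at 0.035 with the mean of its probe sets. With the antisense control level Loxl1 and Fmod were at -0.12 and 0.42 late against early. The sex difference of the Fmod response was -0.059 with the hybridisation control level, -1.29 with the muscle marker level and -0.23 to 4.29 with each array left out, and that of Col3a1 was 0.15 with the muscle marker level. The cause was not tested. Where a vehicle group was left with 1 array, that array is assumed to vary like the others. Treating the times as replicates was not run for single times, which it merges. No paired analysis was possible because the labels give no replicate numbers.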
